A study of Mus musculus with 6 samples.

Results

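The immature neurons of the adult mouse olfactory bulb were the cells that the authors' annotation of neurons names n04-Immature, and they were taken exactly as named there. The cluster held 3910 of the 21746 annotated neurons, which form 18 types, and of the 51426 annotated cells of the whole bulb. RNA of single cells was captured in droplets, and every molecule was counted by its unique molecular identifier (UMI). The study asked how sensory input shapes the neurons that are added to the adult bulb.

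New neurons reach the olfactory bulb throughout life. Their precursors divide in the subventricular zone, and the young neurons, called neuroblasts, migrate in chains along the rostral migratory stream into the core of the bulb before they move outward and become granule or periglomerular interneurons. A neuroblast can still divide while it migrates, carries doublecortin on its microtubules and polysialic acid on its surface, and forms synapses only after it has settled.

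The bulbs came from wild-type C57BL/6NJ mice of 14 weeks of age, in 6 libraries of 2 per group. Each library was a pool of 3 mice of a single sex, with males in replicate 1 and females in replicate 2 of every group. Control mice had no manipulation according to the sample labels, although the study's text also describes its controls as the open side of occluded animals. In naris-occluded mice a nostril was closed with a plug for 6 weeks, which deprives the bulb of that side of odor input. Olfactory-trained mice had restricted water and learned to use odor cues to obtain it, also for 6 weeks. Cells of the olfactory epithelium were carried along in the dissection, so RNA of sensory neurons is present in these preparations.

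The 2 control libraries held 721 and 429 n04 cells, the 2 naris-occluded libraries 563 and 939, and the 2 trained libraries 696 and 562. Their UMIs summed to between 780700 and 1372800 per library, and the median n04 cell had between 1476 and 2080 UMIs. Levels are given as counts per 1000000 UMIs (CPM), from UMIs summed over the n04 cells of a library, with the SD over the 6 libraries unless another number is given. Xist had at least 2438 UMIs in each female library and at most 1 UMI in each male library, and Ddx3y had none in the female libraries. Of the 3910 barcodes of n04 cells, 16 also occurred in an n04 cell of another library and 238 in any annotated cell of another library. RNA of other cell types was present at unequal levels, with Omp of sensory neurons at 20.8 ± 7.51 CPM and Slc17a7 of mitral and tufted cells at 20.1 ± 7.13 CPM, but Gng13 of sensory neurons at 383 ± 113 CPM, Apoe of glia at 1770 ± 224 CPM and Mbp of oligodendrocytes at 859 ± 140 CPM. Summed marker levels ranged from 730 to 1546 CPM for 10 genes of sensory neurons, from 2559 to 3446 CPM for 10 of astrocytes, from 1582 to 2060 CPM for 8 of ensheathing glia, from 1005 to 1488 CPM for 10 of oligodendrocytes and from 68.8 to 430 CPM for 5 of red blood cells.

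The label was checked first against its 3 markers. Sox11, a SoxC transcription factor of differentiating neurons, was at 1963 and 2212 CPM in control, 2073 and 2016 CPM in naris-occluded and 2052 and 2192 CPM in trained libraries. Dcx, which encodes doublecortin, was at 898 and 845, 971 and 844, and 944 and 939 CPM in the same order. Dlx2, a homeobox factor of interneuron precursors, was at 392.1 and 516, 466 and 462, and 341 and 499 CPM. All 3 genes were higher in n04 than in each of the other 17 types, so the data carry the label. The authors grouped the cells by the very expression that is compared here, so levels of n04 beside other types are descriptions and have no test.

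**Figure D1:**
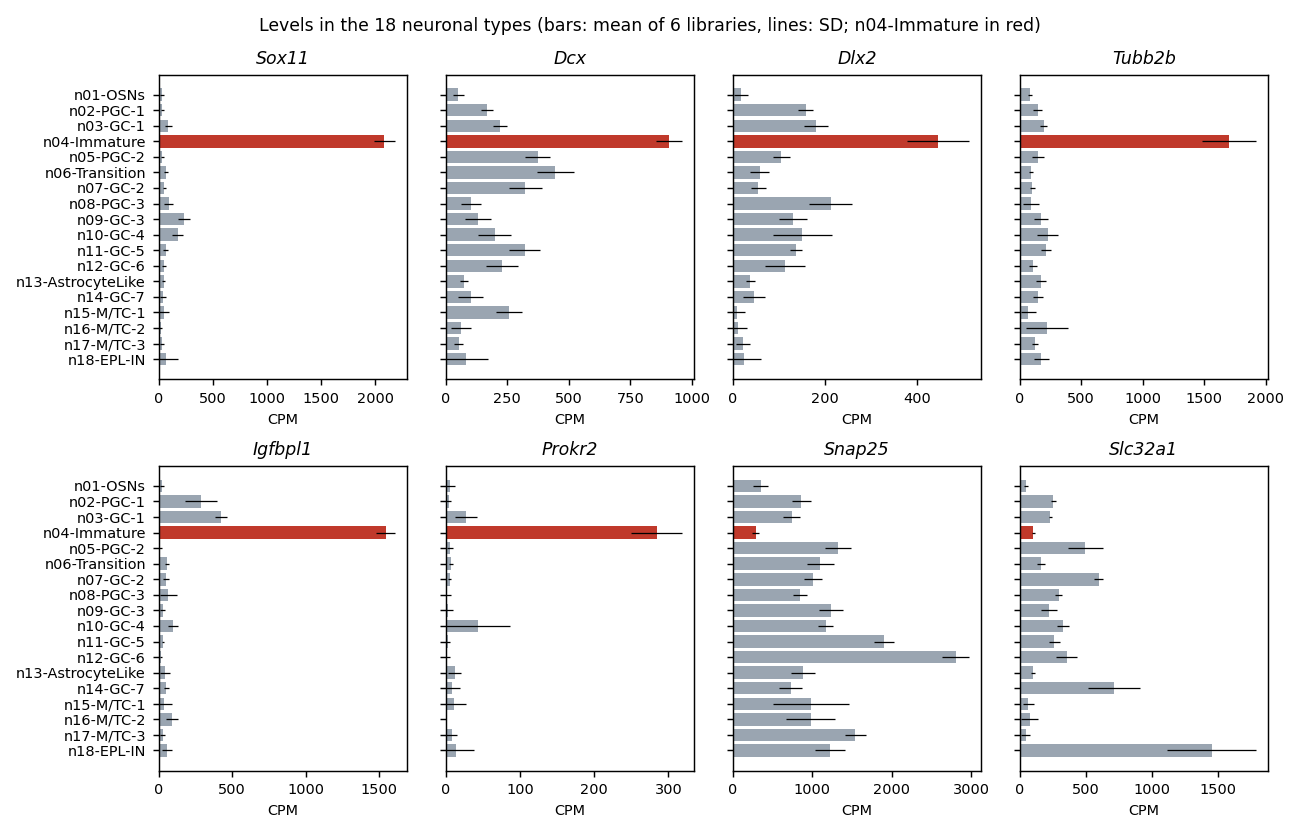
Levels of 8 genes in the 18 neuronal types, in CPM on linear axes that start at 0 (bars, mean of 6 libraries; lines, SD; n04-Immature in red). Sox11, Dcx, Dlx2, Tubb2b, Igfbpl1 and Prokr2 are highest in n04, where Sox11 reaches 2085 CPM against 232 CPM in n09-GC-3, while Snap25 is lowest of all types in n04 (291 CPM) and Slc32a1 is low (105 CPM).

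Of 3133 genes with at least 50 CPM in n04, 741 had their highest level there, and 85 stood at least 2-fold above every other neuronal type when 10 CPM were added to both sides. For 75 of these 85 genes this order held against every other type in all 6 libraries. The leading genes by this ratio included Sox11 (8.67-fold above n09-GC-3), the tubulin gene Tubb2b (7.15-fold above n10-GC-4, at 1703 ± 220 CPM) and Ccnd2, the gene of cyclin D2 (6.19-fold above n03-GC-1, at 804 ± 171 CPM). They also included Hn1 at 1258 ± 66.5 CPM, the zinc finger gene Zfp704 at 487 ± 51.7 CPM and Nrep at 650 ± 34.7 CPM.

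Several of the leading genes encode proteins that act on the outside of a migrating neuron. Prokr2, the receptor for prokineticins that guide neuroblasts into the bulb, was at 272 and 261 CPM in control, 350 and 256 CPM in naris-occluded and 285 and 280 CPM in trained libraries. The next type, n10-GC-4, had 43.2 ± 44.1 CPM. A Prokr2 UMI was present in 33.9% of n04 cells, against 0.583% of the sensory neurons of n01-OSNs, whose median depth was 808.5 UMIs where that of n04 was 1668 UMIs. St8sia2, the enzyme that adds polysialic acid to NCAM, was at 80.1 ± 7.52 CPM, and Vcan, the proteoglycan versican, at 194 ± 13.3 CPM. Igfbpl1 was at 1544 ± 63.3 CPM and Islr2 at 369 ± 28.9 CPM, 3.58-fold and 4.83-fold above the next type. Dpysl3, a cytoskeletal protein of growth cones, followed at 303 ± 34.2 CPM.

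The other leading genes were Carhsp1, Tmsb10, Gm9844, Traf4, Tubb5, Mex3a, Nnat, Cd1d1, Trim59, Gm17750, Mycn, Tuba1a and Abracl, with ratios from 3.54 to 5.65. Tmsb10, a thymosin that binds actin monomers, had 9601 ± 431 CPM in n04 and 1909 ± 273 CPM in n17-M/TC-3. The level of Gm9844, 612 ± 132 CPM, is uncertain, since predicted genes of this kind can share reads with a near-identical gene. Among the 25 leading genes, 20 were also above the highest of the nonneuronal clusters. Vcan (500 ± 93.2 CPM) and Traf4 (320 ± 47.7 CPM) were higher in oligodendrocyte precursor cells, Carhsp1 (396 ± 49.0 CPM) and Trim59 (461 ± 55.2 CPM) in myelinating oligodendrocytes, and Nnat (2566 ± 353 CPM) in mesenchymal cells of cluster Mes1.

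At the other end, 62 of 1614 genes with at least 50 CPM in every other adult-born type were at least 2-fold lower in n04 than in the lowest of them. Caly, a protein of dopamine receptor and endosome traffic, was at 53.8 ± 9.91 CPM in n04 and at 331 ± 57.8 CPM in the lowest other adult-born type, n08-PGC-3. Opcml, a surface adhesion protein, was at 19.5 ± 5.60 CPM against 128 ± 21.8 CPM in n08-PGC-3. Gpr162, Selm, Itm2c, Ptprn, Faim2, Syne1, Dock10, Rasgrf1, Eno2, Pianp, Pde4a and Slc6a17 were also among the 15 lowest genes by this ratio, with log2 values from −1.96 to −1.46. Eno2 (neuron-specific enolase, 43.9 ± 9.69 CPM) and Slc6a17 (an amino acid carrier of synaptic vesicles, 13.4 ± 4.95 CPM) belong to mature neurons.

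Ribosomal protein genes were a further difference in composition. Their 113 measured genes took 14.7% ± 0.382 of all n04 UMIs, with 14.3% to 15.3% in single libraries, against 6.92% to 11.1% in the 11 other adult-born types. The share in n01-OSNs was 17.95% ± 0.713. Across 12621 genes, the levels of n04 were closest to those of n03-GC-1 (Pearson's r = 0.905 on log2 values) and n02-PGC-1 (r = 0.879) and farthest from those of n15-M/TC-1 (r = 0.670). These values are across genes, which are not independent, and all types come from the same 6 libraries.

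The study placed 11 other adult-born types behind n04 on 2 routes, 8 types on axis A (periglomerular cells and part of the granule cells) and 3 types on axis B (the granule cells n09-GC-3 and n07-GC-2, and n06-Transition). Of 10149 genes with at least 10 CPM in n04 or on an axis, 11% had their highest level of the 18 types in n04. Among these genes 22.9% were above axis A in all 6 libraries and 36.6% below it, and 28.8% were above axis B and 39.1% below it.

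Genes of SoxC factors and the cytoskeleton leaned to n04. Of the 35 genes of this list, 25 had their highest level in n04, 31 were above axis A and 30 above axis B in all 6 libraries, with median log2 ratios of 1.22 and 2.29. Sox4 had 2322 ± 269 CPM in n04, 443 ± 54.1 CPM on axis A and 157 ± 26.7 CPM on axis B. Stmn2, which destabilizes microtubules in growing neurites, had 1583 ± 107 CPM, 129 ± 18.7 CPM and 64.9 ± 9.84 CPM in the same order. Tmsb4x was the exception among the most abundant members, at 4657 ± 299 CPM in n04 and 8833 CPM in n01-OSNs.

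Transcription factors of interneuron fate were measured next. Of 37 such genes over 10 CPM, of 42 listed, 15 had their highest level in n04, 24 were above and 10 below axis A in all 6 libraries, and 23 were above and 7 below axis B. Meis2 was at 2221 ± 168 CPM, Tcf4 at 1248 ± 118 CPM and Nfib at 1172 ± 116 CPM. Nfib, a nuclear factor I gene, showed the widest drop of these 3, to 245 ± 34.4 CPM on axis A and 84.6 ± 21.0 CPM on axis B. Of 38 migration and adhesion genes over 10 CPM, 12 were highest in n04. They included Cd24a, a surface antigen used to isolate neuroblasts (1106 ± 99.5 CPM, against 142 ± 27.6 CPM on axis A and 21.7 ± 5.24 CPM on axis B), and Ncam1, the carrier of polysialic acid (907 ± 70.0 CPM).

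Genes of the stem cell stage were mixed. Of 17 stem and progenitor genes over 10 CPM, 3 were highest in n04, where 11% of all genes were. In all 6 libraries 7 were above and 5 below axis A, and 7 were above and 7 below axis B. The median log2 ratio to axis A was −0.05. Fabp7 had 440 ± 94.5 CPM in n04 and 484 ± 60.7 CPM on axis A, less than their spread apart. Hes6 (89.3 ± 9.91 CPM) and Id4 (74.5 ± 20.6 CPM) were highest in n04.

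Genes of synapses and transmission were low. None of 19 GABA and chloride genes, 17 glutamate receptor genes and 21 vesicle release genes over 10 CPM had its highest level in n04, where 11% of all genes did. Of these lists 18, 15 and 20 genes were below axis A in all 6 libraries, beside 36.6% of all genes. Gad1, the main GABA-making enzyme of the soma, was at 290 ± 35.3 CPM in n04 and 1179 ± 81.7 CPM on axis A. Gad2, its synaptic partner enzyme, was at 307 ± 39.6 CPM and 357 ± 34.3 CPM, and it was above axis B in all 6 libraries (182 ± 16.1 CPM). Slc12a5, the chloride exporter of mature neurons, was at 25.4 ± 4.28 CPM, against 158 ± 14.9 CPM on axis A and 293 ± 33.5 CPM on axis B. Slc12a2, the chloride importer of immature neurons, was no higher in n04 (23.4 ± 6.29 CPM) than on axis A (38.9 ± 10.5 CPM). Snap25, a core protein of vesicle fusion, was at 291 ± 45.3 CPM, the lowest of the 18 types. Gria2 (595 ± 71.7 CPM) and Grin2b (221 ± 24.2 CPM) were the most abundant glutamate receptor genes of n04.

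Among 18 survival and apoptosis genes over 10 CPM, 5 were highest in n04. Bax, a pore-forming death protein needed for the loss of surplus new neurons, was at 281 ± 25.6 CPM, and Trp53, the gene of p53, at 65.7 ± 5.18 CPM against 27.9 CPM in the next type. Of 16 growth factor receptor genes, Tgfbr1 alone was highest in n04 (44.4 ± 5.50 CPM). Erbb4, a neuregulin receptor of migrating neuroblasts, was at 160 ± 20.2 CPM and at 47.6 ± 2.96 CPM on axis A. None of 18 immediate early genes was highest in n04, and Fos had 63.7 ± 22.8 CPM. Of all genes 11% were highest in n04, so the counts of receptor and immediate early genes do not set these lists apart.

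**Figure D2:**
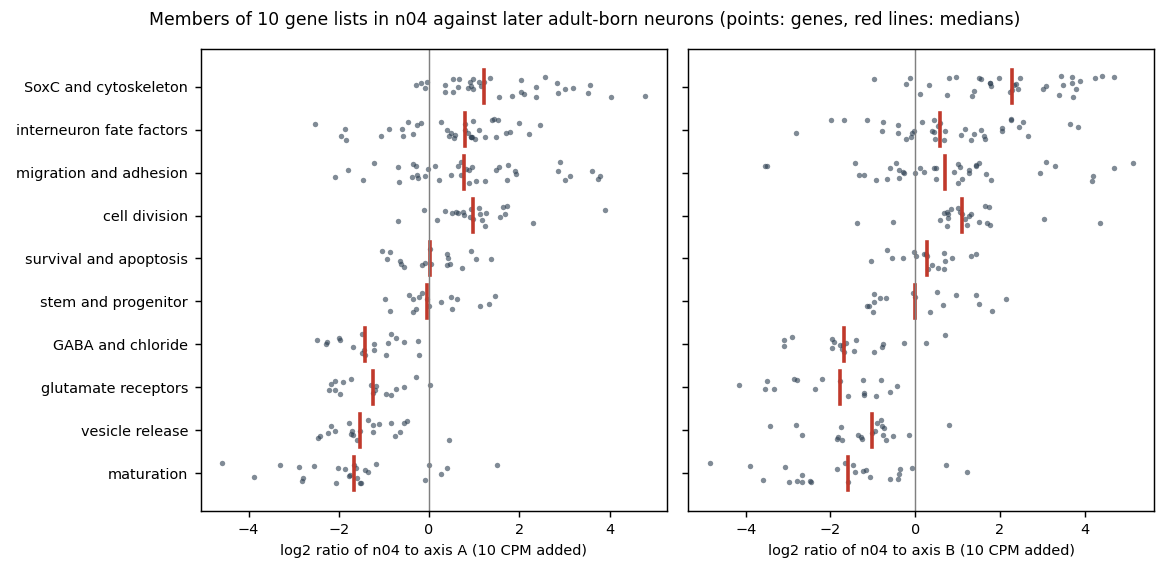
Log2 ratios of n04 to axis A (left) and axis B (right), with 10 CPM added, for the genes of 10 lists with at least 10 CPM in n04 or on an axis; points are genes (mean of 6 libraries) and red lines are medians. The SoxC and cytoskeleton genes lie to the right of 0 with medians of 1.22 and 2.29, while the 4 lists of GABA, glutamate receptor, vesicle release and maturation genes have medians between −1.76 and −1.03.

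The n04 cells were not uniform. In the authors' annotation of the whole bulb, 3283 of them (84.0%) belonged to cluster N1, 448 (11.5%) to N3, 119 (3.04%) to N4 and the other 60 to 7 further clusters. N3 cells were shallow, at a median of 775 UMIs per cell with 15.4% of them mitochondrial, where N1 cells had 1736 UMIs and 8.09%. N4 cells had a median of 2660 UMIs. Each of the 3 groups is part of n04 by its name, and their genes below were chosen by size of the ratio after the values were seen.

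Genes with large ratios of N4 to N1 cells included a noncoding RNA, a guidance receptor and a glutamate receptor. The noncoding RNA Snhg11 was at 773 ± 287 CPM in N4 and 59.1 ± 14.2 CPM in N1, the guidance receptor Epha5 at 762 ± 103 CPM and 88.2 ± 25.9 CPM, and the glutamate receptor Grm5 at 139 ± 55.0 CPM and 10.5 ± 5.10 CPM. Opcml (135 ± 29.4 CPM against 12.5 ± 4.18 CPM), among the genes lowest in n04, was also higher in N4 cells. Among the genes with low ratios were Vcan at 57.6 ± 11.5 CPM against 216 ± 10.97 CPM and Ccnd2 at 260 ± 125 CPM against 789 ± 182 CPM. Sox11 was at 901 ± 256 CPM against 2238 ± 112 CPM. The summed stem and progenitor list was at 1350 ± 179 CPM in N4 and 1401 ± 104 CPM in N1, and Dcx at 934 ± 120 CPM in N4 and 966 ± 73.3 CPM in N1. Summed vesicle release genes were at 3461 ± 585 CPM in N4 and 1650 ± 160 CPM in N1.

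N3 cells differed in another direction. The division genes Pbk (114 ± 88.9 CPM against 6.75 ± 3.402 CPM in N1), Mki67 (106 ± 69.0 CPM against 12.7 ± 4.90 CPM) and Cks1b were higher, as were Dbi (1066 ± 202 CPM against 445 ± 54.4 CPM) and the growth factor gene Mdk. Among noncoding RNAs, Lockd was higher (154 ± 120 CPM against 25.9 ± 9.13 CPM), while 2 abundant ones were lower, with Meg3 at 313 ± 166 CPM against 3467 ± 438 CPM and Malat1 at 8036 ± 2374 CPM against 40850 ± 3959 CPM. Prokr2 was at 60.03 ± 10.8 CPM in N3 and 311 ± 37.8 CPM in N1. Rmst, a noncoding RNA of neurogenesis, had no UMI in N3 and 70.8 ± 7.15 CPM in N1, and with a floor of 3 UMIs over all N3 cells it was at least 11.5-fold lower. Red blood cell genes in N3 cells were at 182 and 141 CPM in control, 3814 and 2768 CPM in naris-occluded and 3770 and 119 CPM in trained libraries. In N1 cells they were at 64.5 to 198 CPM. Their part in the differences of N3 cells was not tested.

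**Figure D3:**
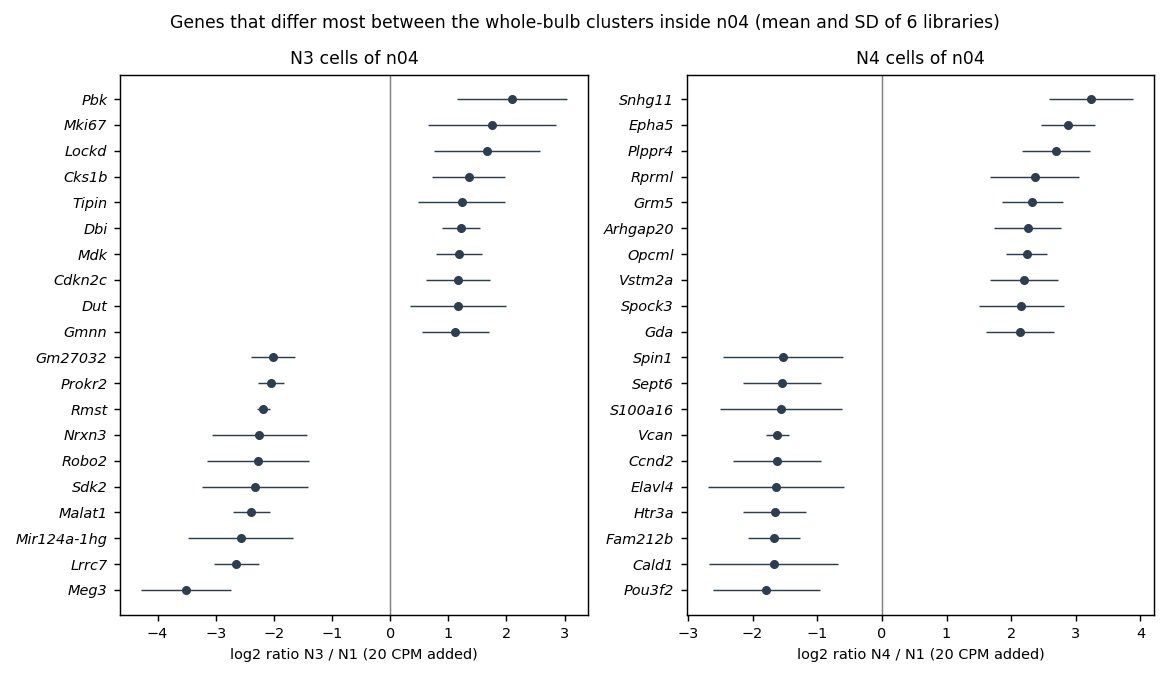
The 10 genes with the highest and the 10 with the lowest log2 ratio, with 20 CPM added, of N3 cells (left) and N4 cells (right) of n04 to N1 cells (points, mean of 6 libraries; lines, SD). Pbk, Mki67 and other division genes lead in N3, where Meg3 is lowest, and Snhg11 and Epha5 lead in N4, where Pou3f2, Vcan and Ccnd2 are among the lowest.

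A small set of n04 cells carried most of its division RNA. Over the 20 genes of the division core list, such as Top2a, Mki67, Ube2c and Cdc20, 3010 UMIs were counted in n04, and 81.3% of them lay in 52 cells with at least 3 such UMIs each. These 52 cells were 1.33% of n04, and the richest had 240 division UMIs. They were also deep, with a median of 4649.5 UMIs, where the 3362 n04 cells without any division UMI had 1603.5 UMIs. Of them 25 were N1 cells, 26 N3 cells and 1 an N4 cell. The other adult-born types had at most 3 cells of this kind each, from none to 0.796% of their cells, the highest share being 3 of the 377 cells of n05-PGC-2. Summed CPM of the list was 480 ± 271 in n04 and between 41.5 and 120 in the other adult-born types, while oligodendrocyte precursor cells had 517 ± 307 CPM, cells of the RBCs cluster 521 ± 418 CPM and those of the Mono cluster 860 ± 671 CPM. Among the other neuronal types, n16-M/TC-2 had 2 cells with at least 3 division UMIs, which is 1.72% of its 116 cells.

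Apart from the division genes, the 52 cells differed from the cells without division UMIs in a number of other genes. Prokr2 had no UMI in any of the 52 cells, which allows a share of up to 5.77% of cells with a UMI (a limit for counting error only, and not on cells that express the gene), where 33.8% of the 3362 other cells had a UMI. With a floor of 3 UMIs among the 237393 UMIs of the dividing cells, its level was at least 23.8-fold lower than the 301 ± 33.5 CPM of the other cells. Insm1, a zinc finger factor of cells leaving the cycle, had a UMI in 59.6% of the 52 cells and in 2.68% of the others. Egfr, the receptor carried by transit amplifying cells, had a UMI in 19.2% and 0.387%, and the shares of both genes are not matched for the greater depth of the dividing cells. In CPM, which allow for depth, Insm1 was at 278 ± 106 CPM against 18.2 ± 2.885 CPM.

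Several further genes stood lower in the dividing cells. Meg3 was at 380 ± 595 CPM against 3384 ± 433 CPM, Meis2 at 590 ± 292 CPM against 2298 ± 166 CPM, Pbx3 at 39.8 ± 33.5 CPM against 489 ± 55.4 CPM and Dcx at 441 ± 192 CPM against 915 ± 47.1 CPM. Of the 52 cells 26 belong to N3, where Meg3, Dcx and Prokr2 were also low as a whole. None of the 25 dividing N1 cells had a Prokr2 UMI, and 14 of the 16 dividing cells with a Meg3 UMI were N1 cells. The part of the cluster in these differences was not tested. Other genes typical of n04 did not follow, with Cd24a at 1033 ± 143 CPM against 1107 ± 103 CPM, Nfib at 1179 ± 293 CPM against 1165 ± 95.3 CPM and Stmn1 at 5291 ± 453 CPM against 3943 ± 152 CPM. Sox11 and Dlx2 stood at 2511 ± 333 CPM against 2030 ± 62.6 CPM and at 623 ± 125 CPM against 430 ± 65.9 CPM, so both markers were present in these cells. Ccnd2 was at 4419 ± 1324 CPM against 619 ± 100 CPM. The 52 cells come from 6 libraries with 3 to 16 cells each, and these genes were chosen after their values were seen.

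The conditions were compared on counts summed over the n04 cells of each library, with edgeR's quasi-likelihood test on 9312 genes, all 6 libraries in the fit and Benjamini-Hochberg adjustment at 0.05. Libraries are pools of mice, so p-values measure the spread between such pools. Each group holds a male and a female pool and the fit has no term for sex. The spread within a group therefore includes any difference between the sexes. Counts of calls with a term for the replicate, which follows sex, are given in the closing section. In summed counts, fewer cells of a kind and less RNA per cell cannot be told apart without the counts of single cells, which are given below.

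Naris occlusion lowered 10 genes of n04 in edgeR's test and raised none, while DESeq2 called 6 lower and none higher. The 10 genes are 0.107% of those tested, and 410 genes (4.4%) had an unadjusted p under 0.05. Of the 10, 8 belong to the division core list, Hmmr is another gene of the mitotic spindle, and S100a5 is a calcium-binding protein of olfactory sensory neurons. Hmgb2, a chromatin protein that is abundant in dividing cells, was at 277 and 295 CPM in control, 89.8 and 77.2 CPM in naris-occluded and 169 and 173 CPM in trained libraries. The 3 groups did not overlap. Its log2 fold change after occlusion was −1.80 ± 0.14 (SE), with an adjusted p of 9.4e-07.

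Ube2c, the ubiquitin-conjugating enzyme of the anaphase-promoting complex, was at 57.1 and 69.2 CPM in control, 2.57 and 11.7 CPM in naris-occluded and 34.8 and 22.6 CPM in trained libraries. It fell by 3.06 ± 0.37 on the log2 scale (adjusted p = 8.2e-04). Cenpf, a kinetochore protein, was at 34.7 and 44.8, 5.13 and 8.01, and 21.2 and 27.2 CPM in the same order, and fell by 2.54 ± 0.34 (adjusted p = 0.0017). Both genes were lowest in the naris-occluded libraries and intermediate in the trained ones.

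Cks2, which binds cyclin-dependent kinases, fell by 2.17 ± 0.29 (adjusted p = 0.0017), and Cenpa, the histone of centromeres, by 2.72 ± 0.41 (adjusted p = 0.0046). Cdc20, an activator of the anaphase-promoting complex, fell by 3.06 ± 0.47 (adjusted p = 0.0053), Top2a, the DNA topoisomerase of dividing cells, by 2.30 ± 0.39 (adjusted p = 0.017) and Ccnb1, the gene of cyclin B1, by 3.37 ± 0.58 (adjusted p = 0.017). Hmmr had 18 and 9 UMIs in control, none in either naris-occluded library and 13 and 5 UMIs in trained libraries (adjusted p = 0.017). With a floor of 3 UMIs over both naris-occluded libraries, Hmmr was at least 11.5-fold lower than in control. In all 10 genes both naris-occluded libraries were also below both trained libraries, as in 15.6% of all genes, but the 10 were chosen for low values in these same naris-occluded libraries.

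**Figure D4:**
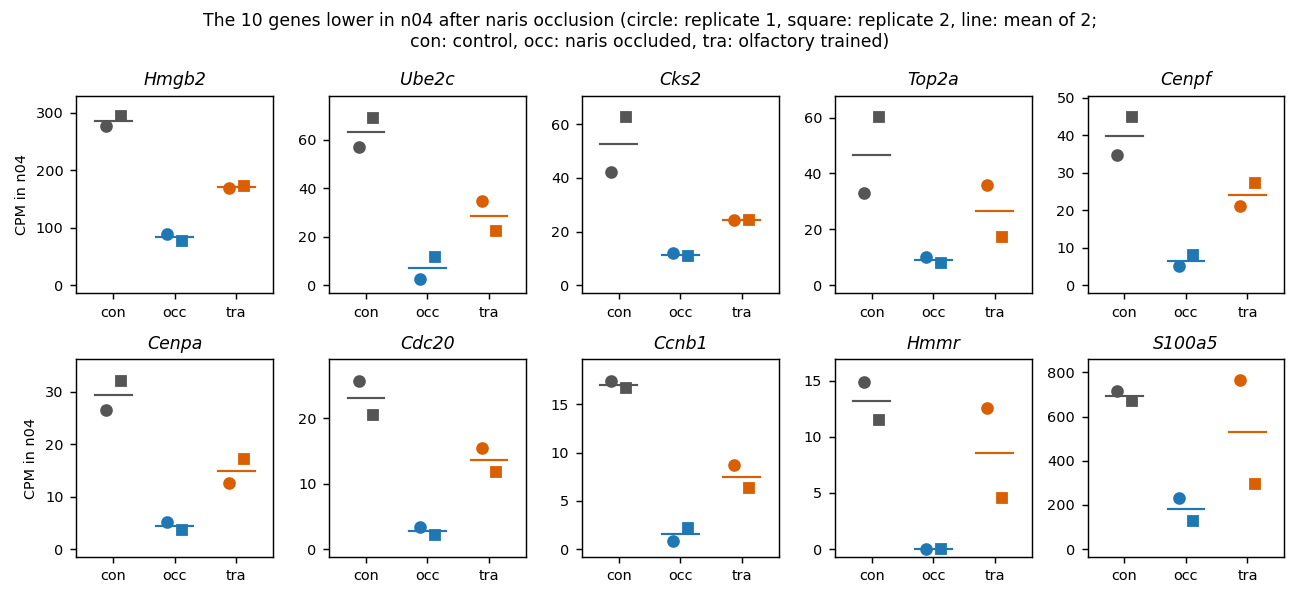
CPM in n04 of the 10 genes that were lower after naris occlusion, by library (circles, replicate 1; squares, replicate 2; lines, mean of 2 libraries; con, control; occ, naris occluded; tra, olfactory trained), each on a linear axis of its own. In all 10 genes both naris-occluded libraries lie below both control libraries, and Hmgb2 falls from 277 and 295 CPM to 89.8 and 77.2 CPM.

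Of the 20 division core genes, 19 were tested, 8 fell, and all 19 were lower in both naris-occluded libraries than in both control libraries, where 13.8% of all genes tested were. Their median log2 fold change was −2.37, beside 0.0028 over all genes. The core genes were counted largely in the same few cells of each library, so they are not independent of each other. In the longer cell division list, which holds all 20 and adds S phase and cell cycle genes, 32 of 40 were tested. The 8 that fell there were the same 8 core genes. Of its 22 genes that were lower without overlap, 19 were core genes, so the added genes contributed few. Ccnd2, the most n04-typical gene of that list, was at 829 and 1031 CPM in control, 699 and 684 CPM in naris-occluded and 606 and 975 CPM in trained libraries and did not pass the test (adjusted p = 1.00). Mki67 had the smallest difference in the core list, with 19.0 and 29.5 CPM in control and 18.8 and 17.5 CPM in naris-occluded libraries.

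These 10 calls depend on which libraries and cells enter. Without naris-occluded replicate 2, 3 calls were left (Hmgb2, Ube2c and Cenpf), without control replicate 1 there were 6, and without trained replicate 1 or 2, which only serve the shared estimate of spread, there were 34 and 33. The 6 genes called by DESeq2 were all among the 10, and Ccnb1, Cdc20, Hmmr and S100a5 were not called there. Ccnb1 and Hmmr also lost their call when any of the 4 control and naris-occluded libraries was left out. With no filter on low counts 7 genes were called higher and 29 lower, and with only the 4 libraries compared 3 higher and 20 lower. With N1 cells alone, S100a5 was the only gene called. The same held without the 52 dividing cells, but these were picked by the division UMIs themselves, so leaving them out removes most of the measured signal by construction. Both of these last settings were chosen after seeing the data.

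Summed division core CPM in n04 was 729 and 856 in control, 207 and 186 in naris-occluded and 479 and 424 in trained libraries. The groups did not overlap, and an exact two-sided permutation test gave p = 0.3333 for either manipulation against control, the smallest p that 2 against 2 libraries allow. Cells with at least 3 division UMIs numbered 10 and 10 in control (1.39% and 2.33% of n04), 3 and 8 in naris-occluded (0.533% and 0.852%) and 5 and 16 in trained libraries (0.718% and 2.85%). Pooled, they were 20 of 1150 control cells (1.74%, exact 95% interval 1.07 to 2.67%), 11 of 1502 naris-occluded cells (0.732%, 0.366 to 1.31%) and 21 of 1258 trained cells (1.67%, 1.04 to 2.54%). These intervals cover counting error only. In a single random thinning of cells to 1000 UMIs, the shares were 1.49% and 2.90% in control libraries (8 and 10 cells). They were 0.610% and 0.421% in naris-occluded (3 and 3 cells) and 1% and 1.27% in trained libraries (5 and 6 cells). In that draw neither manipulated group overlapped with control, on these few cells, while the trained shares before thinning did overlap.

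Cells with at least 5 division UMIs were 1.25% and 2.33% of n04 in control, 0.533% and 0.426% in naris-occluded and 0.718% and 1.96% in trained libraries. Part of the cells counted as dividing, at 3 or more, thus held fewer than 5. The division UMIs per dividing cell also differed between libraries. The median of these cells was 60 and 51.5 division UMIs in control, 43 and 7.5 in naris-occluded and 72 and 7 in trained libraries. The richest cell of each library held 240 of 881 and 202 of 668 division UMIs in control. It held 51 of 242 and 68 of 255 in naris-occluded and 154 of 496 and 145 of 468 in trained libraries. The cells with at least 3 division UMIs together held 89.2% and 88.8% of all division UMIs in control, 56.2% and 54.1% in naris-occluded and 85.3% and 79.1% in trained libraries. Without them, the summed CPM was 82.2 and 103 in control, 92.4 and 86.8 in naris-occluded and 72.1 and 94.0 in trained libraries, values that hold at most 2 division UMIs per cell by construction. After every cell was thinned to 1000 UMIs, which left out between 71 and 226 cells per library, the sums were 321 and 357, 150.4 and 149, and 270 and 259 CPM. Among N1 cells alone they were 189 and 370, 98.9 and 194, and 327 and 321 CPM, so the control and naris-occluded libraries overlapped there. Among N3 cells they were 5923 and 5856, 1835 and 42.3, and 2220 and 1917 CPM.

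**Figure D5:**
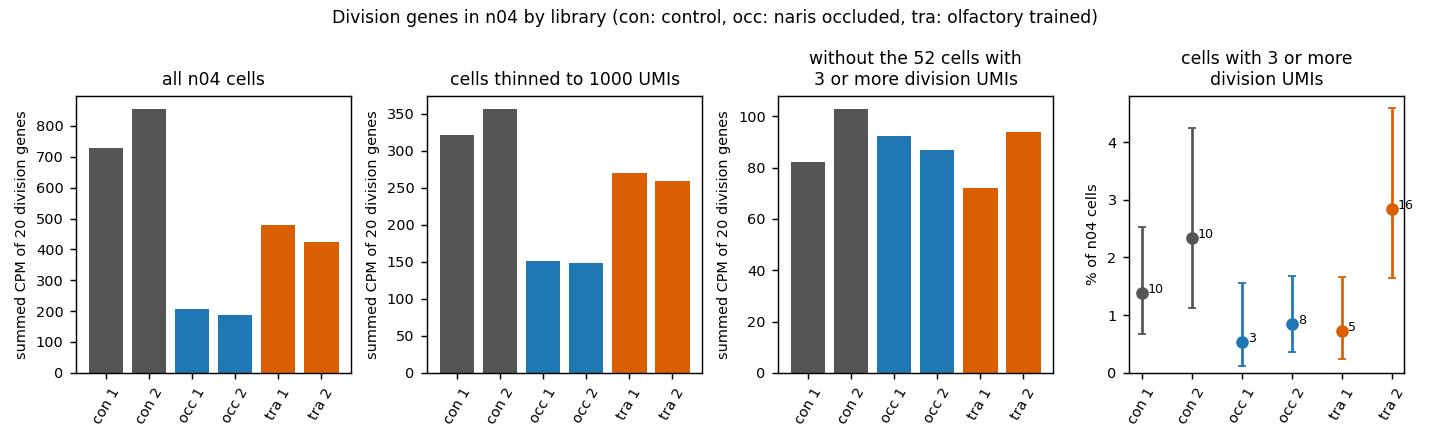
The 20 division core genes in n04 by library (con, control; occ, naris occluded; tra, olfactory trained). From left, bars starting at 0 show summed CPM of all n04 cells, of cells thinned to 1000 UMIs, and without the 52 cells with 3 or more division UMIs; the right panel shows the percentage of n04 cells with 3 or more division UMIs, with exact 95% intervals and the number of cells. Naris-occluded libraries are lowest in the left 2 panels (207 and 186 CPM against 729 and 856 CPM in control over all cells), while the third panel holds only cells with at most 2 division UMIs by construction.

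The promoters of the genes that fell were read for the letters of cell cycle elements. Late cell cycle genes are known to carry CCAAT boxes, which bind NF-Y, and the cell cycle genes homology region, TTTGAA in its common form, which binds the DREAM and MuvB complexes. RefSeq windows of GRCm38.p6 from 250 bases before to 50 bases after the gene start were found for all 10 genes and searched for CCAAT and TTTGAA on both strands (as ATTGG and TTCAAA on the other). The 9 genes of the division machinery were chosen after their values were seen, and their windows held CCAAT in 9 of 9 and TTTGAA in 7 of 9, all but Ccnb1 and Cks2. Of all 27025 windows, 37.9% held CCAAT, 18.1% held TTTGAA and 7.12% held both, and of the 7164 windows of tested genes the shares were 39.3%, 10.7% and 4.38%. At least 2 copies of CCAAT stood in all 9 windows and in 12.2% of all windows. The 18 windows of the whole division core list, called or not, held CCAAT in 88.9%, TTTGAA in 66.7% and at least 2 copies of CCAAT in 72.2%. The S100a5 window held CCAAT without TTTGAA. The 250 bases before the start are shown 5′ to 3′ on the gene's strand for 3 genes with TTTGAA and for Ccnb1, which lacks it, with both motifs in capitals. In the Ube2c sequence 2 CCAAT matches of opposite strand overlap (CCAATTGG). Hmgb2 lies on the plus strand at chr8:57511593-57511842, Ube2c on the plus strand at chr2:164769679-164769928, Cdc20 on the minus strand at chr4:118437344-118437593 and Ccnb1 on the minus strand at chr13:100786487-100786736. A match of letters is a description and not a bound site.
Hmgb2: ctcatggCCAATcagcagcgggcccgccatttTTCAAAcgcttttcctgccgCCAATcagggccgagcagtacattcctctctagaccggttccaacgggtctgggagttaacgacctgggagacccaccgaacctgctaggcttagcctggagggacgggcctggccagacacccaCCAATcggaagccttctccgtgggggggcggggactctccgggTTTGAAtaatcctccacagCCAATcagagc
Ube2c: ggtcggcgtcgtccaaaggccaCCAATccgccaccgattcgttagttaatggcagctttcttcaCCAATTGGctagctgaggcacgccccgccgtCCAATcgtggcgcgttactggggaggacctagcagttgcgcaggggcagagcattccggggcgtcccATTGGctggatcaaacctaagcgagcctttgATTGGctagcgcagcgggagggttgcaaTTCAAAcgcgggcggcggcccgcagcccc
Cdc20: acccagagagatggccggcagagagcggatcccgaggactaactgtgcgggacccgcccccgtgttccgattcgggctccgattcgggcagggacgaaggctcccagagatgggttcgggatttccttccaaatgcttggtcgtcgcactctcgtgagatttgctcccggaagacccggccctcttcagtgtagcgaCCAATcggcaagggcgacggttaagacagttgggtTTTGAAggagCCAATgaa
Ccnb1: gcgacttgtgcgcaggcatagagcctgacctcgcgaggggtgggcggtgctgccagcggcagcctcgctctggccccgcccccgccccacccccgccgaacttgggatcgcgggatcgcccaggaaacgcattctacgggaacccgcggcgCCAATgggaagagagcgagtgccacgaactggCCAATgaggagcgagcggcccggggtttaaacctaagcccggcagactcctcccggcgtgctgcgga

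S100a5 was the gene called outside cell division. It was at 717 and 671 CPM in control, 233 and 127 CPM in naris-occluded and 764 and 296 CPM in trained libraries, and fell by 1.99 ± 0.30 on the log2 scale (adjusted p = 0.0046). It was not called in DESeq2 (−1.985), without control replicate 1 (−1.95) or without naris-occluded replicate 2 (−1.63), with the fold change on the log2 scale in parentheses. In n01-OSNs, the sensory neurons that make it, it was at 28031 and 25567 CPM in control, 15027 and 10026 CPM in naris-occluded and 19259 and 25037 CPM in trained libraries. The other adult-born types summed together showed the same gene lower after occlusion (log2 fold change −1.81, adjusted p = 0.019), and n03-GC-1 had it at 767 and 758, 347 and 133, and 972 and 466 CPM. The summed 10 sensory neuron markers in n04, which include S100a5 itself, were at 1355 and 1287, 756 and 730, and 1546 and 748 CPM. S100a5, at 717 and 671 CPM in control, was a large part of the control sums. The fall of the sum is therefore no separate measure of sensory neuron RNA. Omp, which defines these cells, was at 25.6 and 25.6 CPM in control and 20.5 and 9.47 CPM in naris-occluded libraries. The part of sensory neuron RNA in the change of S100a5 was not tested.

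The genes that define n04 were similar between control and naris-occluded libraries. The 3 markers Sox11, Dcx and Dlx2 had log2 fold changes of −0.05 ± 0.11, 0.03 ± 0.11 and 0.01 ± 0.16. None of 35 SoxC and cytoskeleton genes, 37 fate factors, 35 migration genes, 16 GABA and chloride genes, 14 glutamate receptor genes or 23 maturation genes tested passed in edgeR or DESeq2, with 1 to 3 genes of each list at an unadjusted p under 0.05 and list medians between −0.14 and 0.037. The median of the 20 vesicle release genes tested was −0.18, with none called. At an unadjusted p under 0.05, 5 of them were lower and 1 higher, and 8 were lower and 2 higher without overlap. Of the 23 maturation genes 7 were lower and 2 higher without overlap. Of all genes 13.8% were lower and 18.8% higher in this way. Markers of ensheathing glia (median 0.43, 6 of 8 higher without overlap) and of red blood cells (median 1.17, 4 of 4 higher, with 18.8% of all genes) were higher in the naris-occluded libraries, none of them past the test. Their part in the other values was not tested.

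Olfactory training against control gave no call in n04 by edgeR's quasi-likelihood test, with 489 genes (5.25%) at an unadjusted p under 0.05, and DESeq2 called none either. Without trained replicate 1 there were 16 calls and without trained replicate 2 there were 17. Either omission leaves a trained pool of a single sex against controls of both sexes. The calls included the sex-linked genes Ddx3y and Eif2s3y without trained replicate 1, and Xist and Tsix without trained replicate 2. Of the 19 division core genes tested, none was called and 14 were lower in both trained libraries than in both controls, beside 16.3% of all genes, with a median log2 fold change of −0.82. Hmgb2 was lower by 0.74 on the log2 scale (adjusted p = 0.15). The heat shock gene Hspa8 was at 823 and 995 CPM in control and 1573 and 1317 CPM in trained libraries (log2 fold change 0.67 ± 0.13, adjusted p = 0.32). Dynll1, a dynein light chain, was at 649 and 789 CPM in control, 644 and 690 CPM in naris-occluded and 1322 and 992 CPM in trained libraries, and missed the threshold against control (adjusted p = 0.54).

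The direct comparison of training with occlusion called Hmgb2 alone, 0.0107% of the genes tested, with 619 genes (6.65%) at an unadjusted p under 0.05. Hmgb2 was higher in trained libraries by 1.06 ± 0.14 on the log2 scale (adjusted p = 0.0052). DESeq2 called Hmgb2 and Dynll1, and the edgeR value of Dynll1 was 0.81 ± 0.14 (adjusted p = 0.099). Sag, the gene of arrestin 1, was at 142 and 290 CPM in naris-occluded and 77.3 and 92.4 CPM in trained libraries (adjusted p = 0.099). Of the 19 division core genes, 16 were higher in both trained libraries, beside 15.6% of all genes, with a median of 1.54. There were 26 calls without trained replicate 1, 55 without trained replicate 2, 4 without naris-occluded replicate 1 and none without naris-occluded replicate 2. Without trained replicate 1, a female trained pool stood against naris-occluded pools of both sexes, and the calls included the sex-linked genes Ddx3y and Eif2s3y. When the 52 dividing cells were left out, Hmgb2 was no longer called (−0.21) and S100a5, Dynll1 and Sag were.

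Whether a change belonged to n04 was tested as the interaction of type and condition, with the other 11 adult-born types summed as the comparison and library as a term, on 11596 genes. The mixture of these types also changed with occlusion in edgeR's quasi-likelihood test of cell numbers. The log2 fold change was −1.91 for n14-GC-7 (adjusted p = 6.0e-05), −0.857 for n06-Transition and 0.863 for n03-GC-1 (both adjusted p = 0.051). Its part in the differences below was not tested. For occlusion the test called 8 genes (0.069%), all with a negative difference, with 571 at an unadjusted p under 0.05. Of the 8, 5 are division genes, and the others are Elavl2, Pcp4 and the haemoglobin gene Hbb-bs. Each of the other adult-born types held at most 3 cells with at least 3 division UMIs. For division genes the term thus rests mainly on the fall in n04, and it cannot show whether dividing cells of other types changed. Hmgb2 was at 21.3 and 25.4 CPM in the other adult-born neurons of control and 20.2 and 22.5 CPM in those of naris-occluded libraries, and the difference of the changes was −1.63 ± 0.24 (adjusted p = 1.5e-07). Cenpf differed by −3.94 ± 0.68 (adjusted p = 3.0e-05) and Cks2 by −2.45 ± 0.50 (adjusted p = 0.0033). The log2 fold change of Cenpf was −2.54 in n04 and 1.36 in the other adult-born neurons, where it did not pass the test (adjusted p = 0.83). Ube2c and Prc1, a protein of the spindle midzone, were also called. Outside n04 these 4 genes were at 0.829 to 7.51 CPM. Ube2c and Prc1 passed the filter on low counts only through n04, so no change of theirs could be measured in the other adult-born neurons. For training 2 haemoglobin genes were called (0.0172%), Hba-a1 and Hbb-bs, and neither was without trained replicate 1. The occlusion interaction had 3 calls without control replicate 1, 5 without control replicate 2 and 2 without naris-occluded replicate 2. In the other adult-born neurons themselves, occlusion raised 3 genes and lowered 3 of 12034 tested.

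The number of n04 cells relative to the adult-born neurons was the last measure compared. The cells were 22.5% and 19.3% of adult-born neurons in control, 24.1% and 32.1% in naris-occluded and 20.9% and 24.7% in trained libraries. Both naris-occluded libraries were above both controls, and the trained libraries overlapped with them. The difference did not exceed the spread between libraries, with a log2 fold change of 0.43 ± 0.34 for occlusion (adjusted p over the 12 types = 0.51) and 0.12 ± 0.34 for training (adjusted p = 0.84) in edgeR's quasi-likelihood test. A share also moves with those of the other types, and n14-GC-7 had a log2 fold change of −1.91 after occlusion in the same quasi-likelihood test (adjusted p = 6.0e-05). Exact permutation tests of the n04 share gave p = 0.3333 for occlusion and p = 0.667 for training. Without naris-occluded replicate 1, which leaves a lone library in that group and assumes that it varies like the others, the difference was 0.62 (adjusted p = 0.040). The share of N3 cells in n04 was 12.3% and 13.3% in control, 10.5% and 7.24% in naris-occluded and 15.1% and 12.5% in trained libraries, and that of N4 cells was between 2.10% and 4.27%.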

How the data were processed

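Cells of the olfactory bulb were dissociated with papain and captured with the 10x Chromium 3′ kit. Per the submitters' processing notes, reads were processed with Cell Ranger 2.0.0 on mm10 and cells were clustered with Seurat 2.2.1. The authors deposited a table of raw UMI counts per gene and cell, without normalization, after doublets and cells with few genes had been left out, together with annotations of cell type and library. Their log-normalized values were not used here. Cell types and libraries were taken from these annotations. The library came from the annotation column. Cell names of the 2 trained libraries start with the other library's name, and only the annotation column matched the labelled sex of the pools.

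Counts were summed over the n04 cells of each library and scaled to counts per 1000000 UMIs (CPM). Genes that passed edgeR's filter on low counts were tested in edgeR 4.0.16 (R 4.3.3) with TMM factors and the quasi-likelihood test over all 6 libraries, with Benjamini-Hochberg adjustment at 0.05. Errors of log2 fold changes are standard errors. The share of n04 among adult-born neurons and the difference between n04 and the other adult-born types were tested in the same way. The steps were tested on simulated data. Summed levels were compared by exact permutation tests, and the exact intervals of shares of cells came from scipy 1.17.1. DESeq2 1.42.0 and the other alternatives are given in the closing section. Levels of other types are means of 6 libraries, and 10 CPM were added before log2 ratios, or 20 CPM between clusters N1, N3 and N4.

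Genes were named by rule, as the 3 markers and genes the study discusses, the 25 highest and 15 lowest of n04 against other types, the genes called in a comparison, and the most abundant of each list. The members and the lists were chosen with earlier results of these data known. Replicate numbers follow the sex of the pools and were not used as pairs, since deviations of same-numbered libraries from their group means correlated at 0.0806, 0.0997 and 0.0406 over 9307 genes. Results for a few named genes are not reported here.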

Additional observations from a re-analysis of the deposited data

Results flagged for a closer look

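The change with condition in n04 was compared with that in the other adult-born neurons by the interaction term of edgeR's quasi-likelihood test. With Benjamini-Hochberg adjustment, 10 such terms were called. After naris occlusion the log2 fold change of division genes was lower in n04 by −3.94 for Cenpf, −2.45 for Cks2 and −1.63 for Hmgb2. For Cenpf it was −2.54 in n04 and 1.36 in the other adult-born neurons. There Cenpf had only 0.829 and 2.42 CPM in control and 3.08 and 5.01 CPM in naris-occluded libraries. The other adult-born types held few dividing cells, so the terms of division genes rest mainly on the fall in n04. The terms of Prc1 (−3.22) and Ube2c (−3.17) were also called. Both genes passed the filter on low counts only through n04, so no change of theirs could be measured in the other adult-born neurons. Their terms therefore cannot decide whether n04 and those neurons differ. The Hmgb2 difference was called whichever of the 4 control and naris-occluded libraries was left out. Leaving out any of these 4 libraries ended the call of Ube2c (adjusted p from 0.068 to 0.75) and of Prc1 (0.17 to 0.75), and that of Cks2 ended without control replicate 2 (adjusted p = 0.16) or naris-occluded replicate 2 (0.92), and that of Cenpf without naris-occluded replicate 2 (0.083).

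Elavl2, a neuronal RNA-binding protein, was at 187 and 193 CPM in control and 152 and 166 CPM in naris-occluded n04 cells, while the other adult-born neurons had 16.3 and 19.3 CPM and 25.7 and 34.7 CPM. The difference of the changes was −0.997 ± 0.23 (adjusted p = 0.036), and neither change passed the test on its own. The difference was not called without control replicate 1 (−0.903, adjusted p = 0.82), control replicate 2 (−1.07, adjusted p = 0.17) or naris-occluded replicate 2 (−0.860, adjusted p = 0.80). Pcp4, a calmodulin-binding protein, was at 754 and 439 CPM in control and 451 and 374 CPM in naris-occluded n04 cells, with a difference of −0.61 ± 0.14 (adjusted p = 0.036). Its control and naris-occluded values overlap in n04, and the difference was −0.238 (adjusted p = 1) without control replicate 1 and −0.367 (adjusted p = 0.96) without naris-occluded replicate 2.

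The haemoglobin gene Hbb-bs was at 127 and 58.9 CPM in control, 229 and 137 CPM in naris-occluded and 257 and 48.0 CPM in trained n04 cells. In the other adult-born neurons it was at 139 and 64.0, 464 and 437, and 40.7 and 55.0 CPM. Its difference was −1.17 for occlusion, not called without control replicate 1 (adjusted p = 0.19), and 1.77 for training. For Hba-a1 the difference was 2.55 for training, with 77.3 CPM in n04 of trained replicate 1 and 5.43 CPM in n04 of trained replicate 2. Without trained replicate 1 the training differences were −0.0177 for Hbb-bs and −0.394 for Hba-a1. The part of red blood cell RNA in these values was not tested.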

How the results depend on the processing

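Naris occlusion against control gave 10 calls, and 17 with the replicate block (3 higher, 14 lower), 36 with no filter on low counts (7 and 29), 23 with only the 4 libraries compared (3 and 20), 6 in DESeq2, and 1 each (S100a5) with N1 cells only and without the cells with 3 or more division UMIs. Leaving out each library gave 3 to 34 calls. Training against control gave none, and 2 with the replicate block (Hmgb2 and Hspa8), 6 with no filter, 1 in cells of at least 1000 UMIs and 0 to 17 when a library was left out. Training against occlusion gave 1 call, and 8 with the replicate block, 28 with no filter, 4 in cells of at least 1000 UMIs, 4 without mitochondrial, ribosomal and haemoglobin genes, 3 with N1 cells only, 3 without the dividing cells, 2 in DESeq2, 0 with only the 4 libraries compared and 0 to 55 when a library was left out. Without the dividing cells the Hmgb2 value of that comparison was −0.212. The interaction gave 8 calls for occlusion, 5 with no filter and 2 to 12 when a library was left out, and 2 for training, 0 to 3 when a library was left out. There the training difference turned to −0.0177 for Hbb-bs and −0.394 for Hba-a1 without trained replicate 1, and was 2.78 and 3.39 without trained replicate 2.

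The log2 difference in the share of n04 ranged from 0.206 to 0.618 for occlusion and from −0.00209 to 0.242 for training when a library was left out, with the lowest training value without trained replicate 2. A chi-square test on pooled cells, which ignores the spread between libraries, gave 0.431 for occlusion (unadjusted p = 1.3e-18). The log2 ratio of summed division core levels for occlusion, −2.01, was −1.42 as a share of cells, −1.18 after thinning, −0.0469 without the dividing cells, −0.934 in N1 cells only and between −2.12 and −1.89 when a library was left out. For training, −0.811, the values were −0.0605, −0.357, −0.158 and, reversed in N1 cells only, 0.212, with −0.923 to −0.691 when a library was left out. The 85 genes at least 2-fold above other types were 77 to 89 when a library was left out. Settings with N1 cells only and without the dividing cells were chosen after seeing the data, and the dividing cells were picked by the division UMIs themselves. The cause of these shifts was not tested. With 2 libraries per group, and 3 to 16 dividing cells in each, differences in division are limited by few cells.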
